A study of Mus musculus with 6 samples.

Results

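Ermin (Ermn), the ezrin, radixin and moesin genes (Ezr, Rdx, Msn), merlin (Nf2) and the kinases LOK (Stk10) and SLK (Slk) were followed in CD4 T cells kept short of arginine. These 7 genes were taken by name from 22180 genes measured, each through the brightest of its array probe sets that name a single gene. Ermn was put on the list because it was among the largest rises of these same arrays, so its difference between the media is described here without a test. The levels of the other 6 come from the same arrays and are described in the same way.

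Ezrin, radixin and moesin, together called ERM proteins, tie membrane proteins to the actin cortex: a FERM domain at the N-terminal end holds the tails of membrane proteins, and the C-terminal end binds filamentous actin. The molecule is folded shut until it meets the lipid PIP2 and is phosphorylated on a threonine near its C-terminal end, which LOK and SLK do in lymphocytes. In T cells ERM proteins stiffen the resting cortex and hold CD43, CD44 and PSGL-1 in place. Merlin is a relative whose common form lacks the actin-binding end and which feeds the Hippo growth pathway, and ermin is a small actin-binding protein best known from myelinating oligodendrocytes.

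The cells were CD4 T cells of OT-II mice aged 12 to 16 weeks, which carry a transgenic T cell receptor for an ovalbumin peptide. Both groups spent 72 hours in culture with that peptide on antigen-presenting cells, in RPMI-1640 with 10% dialyzed FBS, and CD4 cells were purified again before RNA was taken. The control group (n = 3 arrays) had complete medium, and the low arginine group (n = 3 arrays) had medium with 1% of the normal arginine (12 uM). The comparison asks which transcripts differ between the media. The study used 6 mice, and the labels call the arrays biological replicates without saying which mice gave which array. The p values set a difference between the media against the spread between these arrays.

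Values were Affymetrix log2 levels without detection calls, between 0.956 and 12.41, with array medians of 2.97 to 3.03. A first principal component with 60.5% of the variance separated the media, and on the second (22.5%) the controls scored 35.2 (replicate 1), -8.53 and -22.3. The T cell markers Cd3e (10.8 in control, 10.9 in low arginine) and Cd4 (10.3 and 10.1) were bright in both groups. Genes with a mean under 2.48, a share of 0.333 of all genes, were left out of testing, and the 7 genes lay above this limit. In bulk RNA, fewer cells of a type and less RNA per cell cannot be told apart.

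The stretch upstream of Ermn is shown because Ermn is the gene of the 7 whose level moved most. It covers 250 bases before and 50 after the gene's start in RefSeq (GRCm38.p6, chr2:58052815-58053114, minus strand), with the octamer ATGCAAAT, a motif bound by POU-domain factors, in capitals.
Ermn: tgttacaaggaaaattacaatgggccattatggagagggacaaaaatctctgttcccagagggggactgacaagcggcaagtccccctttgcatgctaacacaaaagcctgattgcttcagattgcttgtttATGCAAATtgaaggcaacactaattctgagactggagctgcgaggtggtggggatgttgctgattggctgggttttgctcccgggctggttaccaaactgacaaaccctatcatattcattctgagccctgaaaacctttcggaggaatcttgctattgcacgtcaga

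The octamer starts 118 bases before the start of the gene, and 1.74% of 32851 RefSeq windows of the same length (300 bases) hold it on either strand. It was looked for after the Ermn window had been seen. The amino acid response element, searched as TGATGNAA on both strands, matched in 0 of the 9 windows of the 7 genes and in 3.97% of all windows. The FOXO motif TGTTTAC matched once, in 1 of the Rdx windows, against 3.65% of all windows. None of these motifs overlapped another in these windows, and a match is a description of letters, not of binding. GC content was 47% in the Ermn window, and 29.7% of all windows had as little or less (median 52.7%). Slk (85%), Stk10 (76.7%), Msn (69%) and Ezr (68%) had GC-rich windows. The Rdx windows had 46.3% and 59.3%, and the Nf2 windows 34.3% and 56.3%.

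Ermn stood far above its control level in low arginine. Control replicates 1, 2 and 3 read 3.81, 3.84 and 3.87 on the log2 scale. Low arginine replicates 1, 2 and 3 read 6.87, 6.48 and 6.32. The controls lay within 0.1 of each other, the low arginine arrays were spread more widely, and the lowest of them was 2.45 above the highest control. The difference, low arginine minus control, was 2.71 ± 0.14 (SE, n = 3 per group) on the log2 scale, a 6.56-fold higher level (95% interval 5.20 to 8.28).

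In the upward direction, 6 of 14787 genes tested had a larger difference than Ermn. Of the 7 members 1 was at least 2-fold higher, against 1.31% of genes tested (4.53% in either direction). That member is Ermn, which was listed for its rise on these arrays, so nothing is read from its rank or this count. The control level of Ermn was 1.36 above the limit for dim genes. Over 12 alternative settings its difference ran from 2.56 (without low arginine replicate 1) to 2.83 (without low arginine replicate 3).

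**Figure D1:**
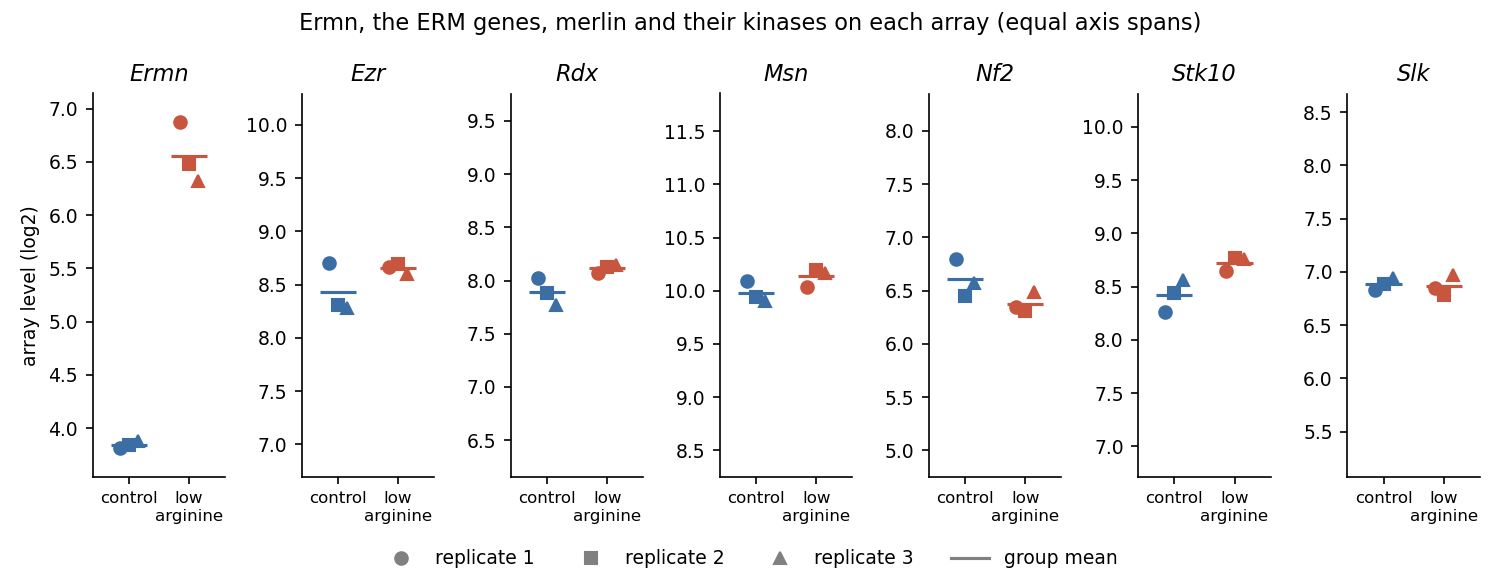
Array levels (log2) of the 7 genes, 1 panel per gene, with control medium in blue and low arginine in red, a symbol for each replicate number and a line at each group mean. All panels span the same number of log2 units, so distances can be compared while levels of different genes cannot: the low arginine Ermn arrays (6.32 to 6.87) stand clear of the controls (3.81 to 3.87), and the other 6 genes differ by 0.31 or less.

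Within the low arginine group the order of the Ermn levels matched the order of the proliferation markers, while in the controls it was reversed. An order of 3 arrays is easily met by chance, and the control Ermn levels differed little (3.81 to 3.87). Nothing is therefore read from either order. The mean of 8 proliferation markers was 7.61 in low arginine replicate 1, 6.67 in replicate 2 and 6.39 in replicate 3. In control replicates 1, 2 and 3 this mean was 8.65, 8.47 and 8.39, where Ermn read 3.81, 3.84 and 3.87. Summed over the list, the markers reached 11.8 to 12.0 (log2) in control and 10.4 to 11.3 in low arginine, and 6 of the 8 fell (limma). The other 2 did not pass. Differences in the list ran from -2.63 to 0.56, so not every marker was lower in low arginine. Mki67, the marker of cycling cells, went from 10.0 ± 0.04 to 8.38 ± 0.78 (SD, n = 3). The part of proliferation in the Ermn difference was not tested.

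The 3 ERM genes, which encode the linkers themselves, differed little between the media. Ezr read 8.71, 8.31 and 8.28 in control and 8.67, 8.70 and 8.60 in low arginine. Control replicate 1 reached the low arginine level and the other controls lay below it, so the groups overlapped. The Ezr difference was 0.22 ± 0.13 (SE), or 1.17-fold (95% interval 0.946 to 1.44). Without control replicate 1 it was 0.36, and over all 12 alternatives it ran from 0.15 to 0.36.

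Radixin, the ERM protein of hepatocyte bile canaliculi, read 8.03, 7.89 and 7.77 in control and 8.07, 8.12 and 8.15 in low arginine. These Rdx groups did not overlap, although control replicate 1 came within 0.1 of the lowest low arginine array. The Rdx difference was 0.22 ± 0.10 (SE), or 1.17-fold (95% interval 0.993 to 1.37), and it ran from 0.16 to 0.29 over the alternatives.

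Moesin, the main ERM protein of lymphocytes, read 10.1, 9.94 and 9.91 in control and 10.0, 10.2 and 10.2 in low arginine. Its groups overlapped, since control replicate 1 lay above low arginine replicate 1. The Msn difference was 0.16 ± 0.10 (SE), or 1.11-fold (95% interval 0.949 to 1.31). A second Msn probe set, at 1.99 over all arrays and so under the dim limit, differed by -0.002, and the mean of both probe sets gave 0.08. The intervals of all 3 genes lie within a 2-fold change in either direction.

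Merlin was the only member besides Slk with a lower mean in low arginine. Nf2 read 6.80, 6.45 and 6.57 in control and 6.34, 6.31 and 6.49 in low arginine. Low arginine replicate 3 lay above control replicate 2, so the groups overlapped. The Nf2 difference was -0.23 ± 0.12 (SE), a ratio of 0.853 (95% interval 0.707 to 1.03). Without control replicate 1, the highest of the 6 arrays, it was -0.13, and without control replicate 2 it was -0.31.

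The kinases that phosphorylate ERM proteins were read next. Stk10, which encodes LOK, the main ERM kinase of lymphocytes, read 8.26, 8.44 and 8.56 in control and 8.65, 8.77 and 8.76 in low arginine. Every low arginine array lay above every control, with the controls spread over a wider range. The Stk10 difference was 0.31 ± 0.11 (SE), or 1.24-fold (95% interval 1.04 to 1.47), the largest among the 6 genes other than Ermn, and it ran from 0.22 to 0.38 over the alternatives.

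Slk, the related kinase, read 6.83, 6.89 and 6.94 in control and 6.85, 6.78 and 6.97 in low arginine. Its groups were interleaved. The Slk difference was -0.02 ± 0.09 (SE), a ratio of 0.987 (95% interval 0.849 to 1.15). Its sign turned without control replicate 3 (0.01) or low arginine replicate 2 (0.02), so Slk has no direction here.

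Across all genes tested, 1799 (12.2%) passed an adjusted p below 0.05 by limma with Benjamini-Hochberg adjustment, 767 higher (5.19%) and 1032 lower (6.98%) in low arginine (535 and 1190 under 75th percentile centring). The 7 members are described without a test, so no call is given for them. The groups did not overlap for 3 of the 7 (Ermn, Rdx and Stk10, all higher), against 32.2% of all genes tested (16% higher and 16.2% lower). Since Ermn was chosen from this comparison, nothing is read from these counts. The differences of the other 6 genes, from -0.23 to 0.31, lay around the median of all genes tested (0.01), and between 20.8% (Nf2) and 84.0% (Stk10) of genes tested had a lower difference.

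**Figure D2:**
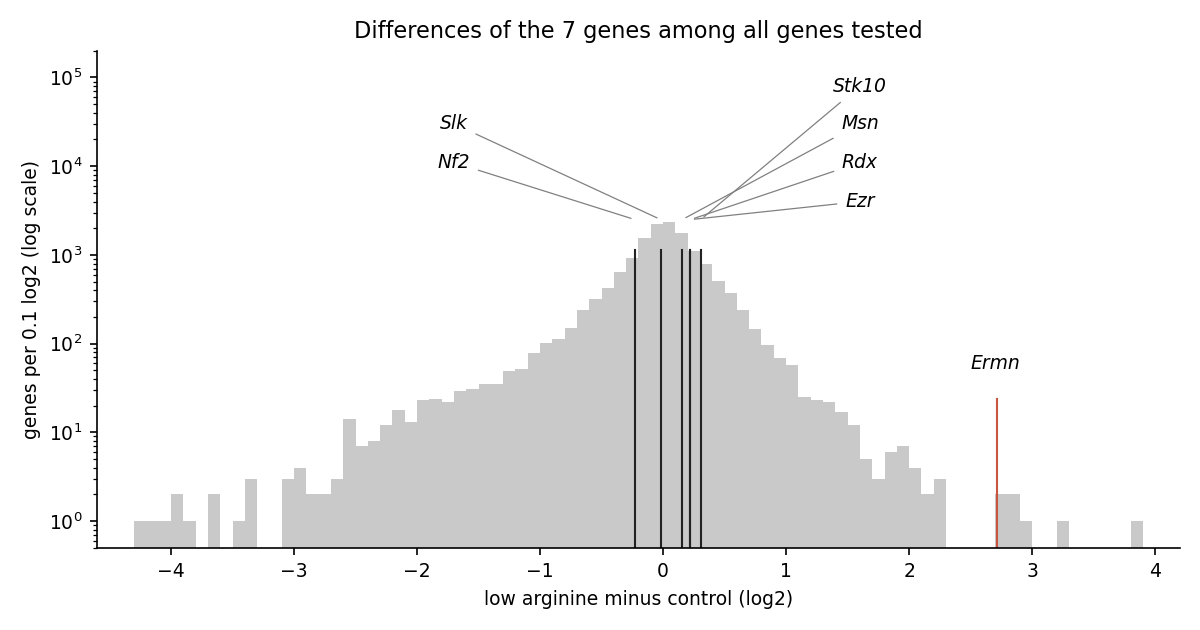
Differences between the media (low arginine minus control, log2, horizontal axis) of 14787 genes in bins of 0.1, with the number of genes per bin on a log axis. Lines mark the 7 members: 6 lie in the centre of the distribution between -0.23 and 0.31, and Ermn lies at 2.71 in its right tail.

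Control replicate 1 moved with several of these values. It was the highest control for 4 of the 7 members. It lay above the mean of the other controls by 0.41 for Ezr, 0.29 for Nf2, 0.20 for Rdx and 0.17 for Msn, and it lay 0.24 below it for Stk10. For Ermn it was within 0.04 of them. What set this array apart was not tested.

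No tested gene beside Ermn on its chromosome passed the test, and neither did any other tested myelin gene. Of the 3 nearest named genes on each side of Ermn on chromosome 2, 5 were measured, and Atp5k-ps4, a pseudogene, was not analysed here. Cytip, the neighbour that encodes a cytohesin-binding protein of lymphocytes, read 8.94, 9.56 and 9.47 in control and 9.41, 9.38 and 9.61 in low arginine. Its groups overlapped, and its difference was 0.14 ± 0.18 (SE; limma adjusted p = 0.68). Gpd2, the mitochondrial glycerol-3-phosphate dehydrogenase, differed by 0.20 (adjusted p = 0.549) and Acvr1, a BMP receptor, by 0.03 (0.909). Galnt5 (0.04) and Acvr1c (0.13) lay under the dim limit and were not tested.

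Ermn is used as a marker of mature oligodendrocytes, and the other markers of these cells were read beside it. Of 20 genes listed 18 were measured, 5 of them below the dim limit, and of the 13 tested 0 passed by limma (1 at an unadjusted p below 0.05, median difference -0.04). Their summed level was 7.61 to 7.71 (log2) in control and 7.61 to 7.77 in low arginine. The brightest, Cnp, differed by -0.05 and Mbp, with the largest difference of the list, by 0.29. The defining genes Mag, Mobp, Opalin, Aspa and Gpr37 were under the dim limit, and Mog, Sox10 and Olig2 had means below 3 in both groups.

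**Figure D3:**
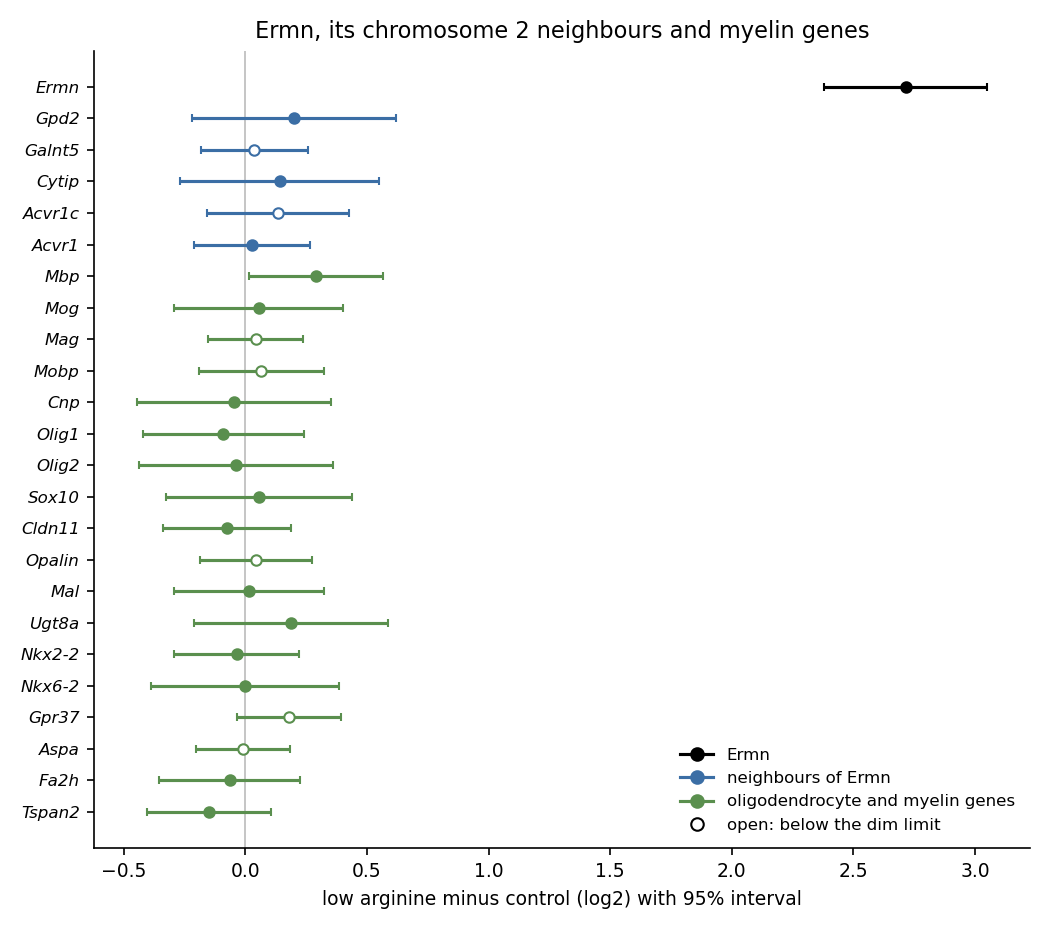
Difference between the media (log2, with 95% intervals from limma) for Ermn, the measured neighbours of Ermn on chromosome 2 in blue and the 18 measured oligodendrocyte and myelin genes in green. Open symbols are genes below the dim limit. Ermn lies at 2.71, while the others lie between -0.15 and 0.29.

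Predicted genes (Gm, Rik or LOC names) were left out when the closest genes were ranked. The others whose levels followed Ermn most closely over the 6 arrays were Chchd10 (Pearson r = 0.998), Btf3l4 (0.997), Wtap (0.996), Mdfic (0.995) and Kat6a (0.995). The arrays fall into 2 media, so a high r here mostly repeats the step between them, and 242 genes tested reached 0.95. Chchd10, a protein of the mitochondrial intermembrane space, read 8.70, 8.69 and 8.78 in control and 9.86, 9.78 and 9.67 in low arginine. Its level was 2.06-fold higher in low arginine. Btf3l4 differed by 0.71, Kat6a, a histone acetyltransferase, by 0.54, Mdfic by 0.50 and Wtap, of the RNA methylation complex, by 0.27. Following Ermn fixes the direction of these genes and the gap between their groups, so their differences carry no test here.

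The closest genes of the other members are given in the same way. Ezr was matched by Prpf19 (r = 0.999), Trmt6 (0.997) and Sf3b3 (0.996), and Msn by Prpf3 (0.989), Ubqln1 (0.989) and Atg3 (0.989). Rdx was matched by Timm10 (r = 0.999), Diablo (0.997) and Larp4 (0.996), and Stk10 by Flcn (0.999), Pced1b (0.997) and Smim14 (0.997). Diablo, an antagonist of apoptosis inhibitors, had a difference of 0.71 beside 0.22 for Rdx, and Pced1b had 0.80 beside 0.31 for Stk10. Nf2 was matched by Cramp1l (r = 0.993), Cnep1r1 (0.992) and Ncs1 (0.99), and Slk by Lhx6 (0.991), Map1lc3a (0.978) and Ppp1r16b (0.97).

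The partners, regulators and relatives of the ERM proteins were read from 7 lists. Of 170 genes listed 155 were measured and 144 tested, and 20 (13.9%) passed by limma, 11 higher and 9 lower, beside 12.2% of all genes tested. Icam2, Diaph2 and Tpm4 passed in all 15 alternatives. The other 17 did not pass without control replicate 2 (where 500 genes of all tested passed) nor without low arginine replicate 3 (592 genes), and their highest adjusted p over the alternatives was 0.166. Genes that did not pass are not shown to be unchanged.

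Among membrane proteins that ERM proteins anchor, 3 of 10 tested rose and 0 fell, with a median difference of 0.24. Icam2, an adhesion molecule held by ezrin and moesin, read 5.38, 5.17 and 5.40 in control and 6.46, 6.63 and 6.45 in low arginine. All low arginine arrays lay about 1 log2 above the controls, and Icam2 rose by 1.20 ± 0.12 (SE), or 2.29-fold (limma adjusted p = 0.00205). L1cam, an adhesion molecule first known from neurons, rose by 0.97 (adjusted p = 0.0206) and Icam1, the ligand of the integrin LFA-1, by 0.48 (0.0378). Icam1 passed in 6 of 15 alternatives, and lost the call under both centrings, the trended robust prior, the replicate block and 5 of the 6 leave-outs.

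The classical T cell cargo of ERM proteins did not pass the test. The sialoglycoprotein CD43 (Spn) differed by -0.14 (limma adjusted p = 0.529), PSGL-1 (Selplg) by -0.22 (0.368) and the hyaluronan receptor Cd44 by 0.35 (0.303). The death receptor Fas differed by 0.57 (0.119) and Cd99l2, of the same list, by -0.74 (0.0769). In this list 1 fall was called under quantile normalization, 75th percentile centring and the replicate block, beside 3, 2 and 2 rises. With array weights there were 2 falls beside 4 rises, and without control replicate 1 there were 2 beside 3.

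Among scaffolds and adaptors 1 of 7 tested passed, with a list median of -0.03. Pag1, a raft adaptor that recruits the kinase Csk and binds the ERM scaffold EBP50, rose by 0.57 (limma adjusted p = 0.0267). EBP50 itself (Slc9a3r1) differed by 0.18 (0.66).

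The kinases, small GTPases and PIP2 kinases that open or phosphorylate ERM proteins gave 1 call among 22 tested, with a list median of -0.07. Rhoc, a small GTPase gene, read 4.10, 4.35 and 4.60 in control and 3.83, 3.58 and 3.70 in low arginine. The groups did not overlap, and Rhoc fell by 0.65 (limma adjusted p = 0.032). Rhoa differed by -0.27 (0.12) and the kinase Rock1 by -0.04 (0.869). The T cell kinase PKC theta (Prkcq) differed by 0.45 (0.1), and the PIP2 kinase Pip5k1b by -0.64 (0.0549).

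Phosphatases that act on ERM proteins and merlin had 1 rise and 2 falls among 12 tested (median -0.02). The catalytic subunits of protein phosphatase 1, Ppp1ca and Ppp1cc, fell by 0.56 (limma adjusted p = 0.0487) and 0.89 (0.0482). Its myosin-targeting subunit Ppp1r12b rose by 0.49 (0.02). The third catalytic subunit, Ppp1cb, differed by -0.24 (0.185). With no filter on dim genes neither Ppp1ca nor Ppp1cc passed.

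**Figure D4:**
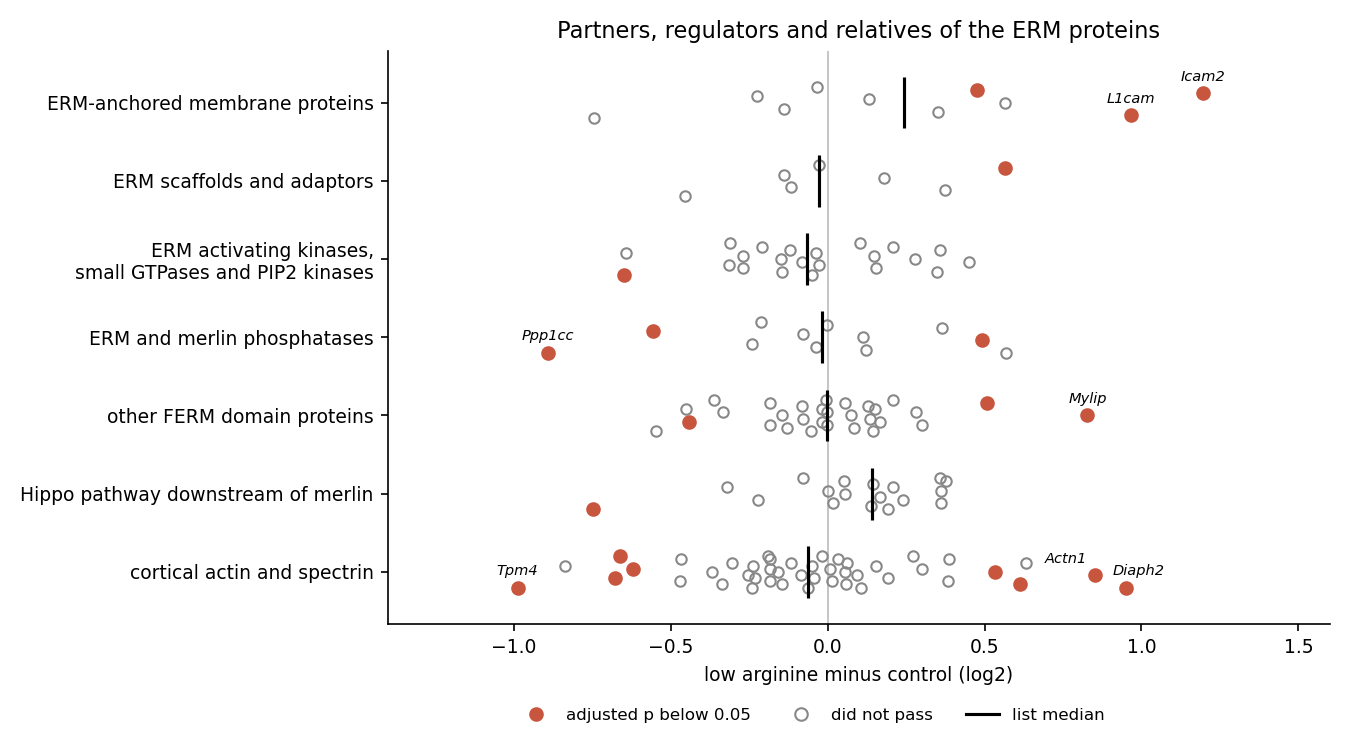
Difference between the media (log2) of each tested gene in the 7 lists around the ERM proteins, with called genes (limma adjusted p below 0.05) filled, other genes open and a bar at each list median. The list medians lie between -0.07 and 0.24, and the called genes lie on both sides of 0, from Tpm4 at -0.99 to Icam2 at 1.20.

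Other proteins with a FERM domain gave 2 rises and 1 fall among 30 tested, with a median difference of -0.003. Mylip, a ubiquitin ligase that degrades the LDL receptor and was named for its binding to myosin light chain, read 4.88, 5.44 and 5.52 in control and 6.00, 6.29 and 6.03 in low arginine. It rose by 0.83 (limma adjusted p = 0.028), and control replicate 1 was its lowest array. The tyrosine phosphatase Ptpn4 rose by 0.51 (0.0289) and the filopodial motor Myo10 fell by 0.44 (0.0497). The talin gene Tln1, which links integrins to actin, differed by 0.17 (0.35).

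In the Hippo pathway downstream of merlin 1 of 18 tested genes passed. Sav1, the scaffold of the Hippo kinases, read 6.59, 6.83 and 6.52 in control and 6.06, 5.86 and 5.77 in low arginine. Its groups did not overlap, and it fell by 0.75 (limma adjusted p = 0.0133). The kinases Stk4 (0.05, adjusted p = 0.869) and Lats1 (0.36, 0.0543) and the co-activator Yap1 (0.21, 0.439) did not pass. The list median was 0.14.

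The cortical actin and spectrin genes gave 4 rises and 4 falls among 45 tested (17.8%, median -0.06). Tpm4, a tropomyosin that coats actin filaments, read 7.80, 7.74 and 7.51 in control and 6.62, 6.71 and 6.75 in low arginine. Every low arginine array lay below every control, and Tpm4 fell by 0.99 (limma adjusted p = 0.00397). Diaph2, a formin that elongates actin filaments, read 5.91, 5.55 and 5.44 in control and 6.60, 6.49 and 6.66 in low arginine. Diaph2 rose by 0.95 (0.00853).

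The related formin Diaph1 fell by 0.62 (limma adjusted p = 0.022). The crosslinkers Actn1 and Flna rose by 0.85 (0.0123) and 0.61 (0.0219), and Dock2, the Rac activator of lymphocytes, rose by 0.53 (0.021). Of the 2 cytoplasmic actin genes, Actg1 fell by 0.66 (0.0213), while Actb differed by -0.18 (0.443). Coro1b, a coronin that unloads actin branches, fell by 0.68 (0.0189).

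Markers of other cells that the co-culture could leave behind were read beside these results. Of 7 CD8 and NK cell genes 5 were tested and 1 fell, Klrk1, by 1.04 (limma adjusted p = 0.0134). In this list 4 of the 5 had an unadjusted limma p below 0.05, and the median difference was -0.61. The brightest of that list, Cd8b1, differed by -0.66 and Cd8a by -0.61, neither passing, while Eomes, a transcription factor of the same list, differed by 0.79 (adjusted p = 0.0779). The list summed to 7.45 to 7.79 (log2) in control and 7.12 to 7.50 in low arginine. Of 11 myeloid and dendritic cell genes 6 were tested and 1 fell, the MHC class II gene H2-Ab1, by 3.06 (adjusted p = 6.02e-04), with summed levels of 7.31 to 7.87 and 6.21 to 6.32. The other 5 tested genes of that list differed by -0.04 (Fcgr3) to 0.22 (Flt3), so the lower sum is that of H2-Ab1. Its partner chain H2-Aa, and Lyz2, Cd14 and Adgre1, were under the dim limit.

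None of 4 B cell genes passed by limma (0 at an unadjusted p below 0.05; brightest Cd79b, largest difference 0.28 in Blk), and the summed list read 5.55 to 5.68 in control and 5.57 to 5.62 in low arginine. None of 7 stromal and endothelial genes passed either (0 at an unadjusted p below 0.05; Pecam1 was the brightest and differed most, by 0.17), with sums of 7.31 to 7.53 and 7.40 to 7.62. Of 10 T cell genes 1 rose, Trat1, by 2.93 (limma adjusted p = 6.02e-04), and the list summed to 12.7 to 12.8 in control and 12.7 to 12.8 in low arginine. The brightest proliferation marker, Pcna, differed by -0.27 and Bub1 fell by 2.63 (adjusted p = 0.00397). The 5 erythroid genes listed were not analysed here. The part of other cells in the values above was not tested.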

How the data were processed

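The 6 samples were each read on a whole-transcript Affymetrix array of 1 colour. The authors deposited log2 levels per probe set, made with the oligo package according to the submitters' processing notes. The package version, normalization, background correction and log base were not given in the sources used here. Base 2 was taken from the range, and the sorted arrays differed by at most 0.199. Of 41345 probe sets, 23521 carried exactly 1 symbol in the platform table, 1814 several and 16010 none. The brightest by mean over the arrays stood for each of 22180 genes, and the dimmest 7393 were left out of testing.

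Limma 3.58.1 in R 4.3.3 compared the groups (lmFit and eBayes, group only, two-sided, Benjamini-Hochberg over 14787 genes, threshold 0.05), and was tested on simulated data. Members were fitted with no dim filter and carry no p. The number of arrays limits the precision.

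The members, the lists and the rule for named genes were chosen with earlier results of these data known. Named were the members and the called genes of each list. The rule took at most 3 per direction where over 5 passed, although all 8 for cortical actin are given. The closest genes by Pearson r and the neighbours of Ermn were named with predicted genes left out. Also named were Cd3e, Cd4, Cd8a and Mki67, and of each marker list the brightest gene and that with the largest difference. List genes that did not pass, and marker genes outside this rule, were named after their values were seen. Promoter windows and neighbour order come from RefSeq tables of GRCm38.p6, in which all 7 genes matched, and protein sequences were not used here. Alternatives were quantile normalization, median or 75th percentile centring, no dim filter or the dimmest 0.5 left out, the mean of probe sets, a trended robust prior, array weights, a block for the replicate number, and each array left out in turn. Figures were drawn with matplotlib 3.10.9.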

Additional observations from a re-analysis of the deposited data

How the results depend on the processing

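The 7 members kept their differences within 1 SD of the replicates in all 12 alternatives run for them. For most of these settings that outcome was fixed in advance. With 3 arrays per group, leaving 1 array out cannot move a difference by 1 SD. The replicate block leaves each difference as it is, and so does the mean of probe sets for every member but Msn. Quantile normalization, the centrings and array weights could have moved the differences further. The count of 1799 genes passing by limma was 5514 with array weights and between 500 and 3325 when single arrays were left out. With the 75th percentile as the centre it was 1725, split into 535 higher and 1190 lower. Array weights raised the counts of called genes to 6 for anchored membrane proteins, 2 for scaffolds, 7 for activating kinases, 7 for phosphatases, 5 for FERM proteins, 7 for the Hippo pathway and 19 for cortical actin. Activating kinases had 2 calls with quantile normalization, median or 75th percentile centring, the dimmest 0.5 left out or the mean of probe sets, and scaffolds had 2 with quantile normalization or 75th percentile centring. With no dim filter phosphatases had 1 call and the Hippo pathway 2. Leaving out single arrays gave 1 to 5 calls for membrane proteins, 0 to 1 for scaffolds, 0 to 3 for activating kinases, 0 to 3 for phosphatases, 0 to 3 for FERM proteins, 0 to 2 for the Hippo pathway and 2 to 10 for cortical actin. The cause of these shifts was not tested. Arrays of the same replicate number correlated by 0.121, 0.0588 and 0.141 in their deviations from the group means. These values are low, yet each array correlated best with its own number, so they do not settle whether the numbers mark pairs. With the replicate block 1568 genes passed and activating kinases had 0 calls. Under it 4 of the 20 list genes did not pass: Rhoc (adjusted p = 0.0542), Icam1 (0.0562), Ppp1ca (0.0501) and Myo10 (0.085).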
